A study of Mus musculus with 17 samples.

Results

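Macrophages can fuse with each other into multinucleated cells, as osteoclasts in bone and as giant cells in inflamed tissue, and a partly shared set of genes serves these cells and the lipid-handling macrophages that carry the receptor TREM2. Lung RNA levels of 8 such genes, of 19751 genes measured, are described here: Tm4sf19, Dcstamp and Ocstamp (membrane proteins linked to fusion), Atp6v0d2 and Acp5 (products typical of osteoclasts), Gpnmb (a glycoprotein of lipid-laden macrophages), and Trem2 with its signalling adaptor Tyrobp. The genes were chosen by symbol, with earlier results of the same arrays known, among them a large fall of Tm4sf19 under the antibody. No measured threshold picked them, and each had a single probe set. The fall of Tm4sf19 is therefore a description with no test. Other tests of Tm4sf19 share arrays with that fall. Their adjusted p-values, and those of the other genes, describe these arrays and are not independent evidence.

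The mice were Balb/c, and RNA of lung tissue was measured on 1 Affymetrix Mouse Gene 1.0 ST array per mouse. Mice of the anti-RGMb group (6 mice) were sensitized and challenged with ovalbumin (OVA), an allergen from egg white, and received a monoclonal antibody to RGMb, which binds neogenin and serves bone morphogenetic proteins as a co-receptor. Mice of the isotype group (5 mice) had the same OVA steps with an isotype antibody, and mice of the saline group (6 mice) had saline at both steps, with no antibody in their labels. No group of the labels had the anti-RGMb antibody without OVA, so the effect of the antibody itself on lung and its effect on the OVA response cannot be told apart, and the difference of isotype from saline mice holds OVA and the isotype antibody together. The mice came from 2 experiments, each with 3 mice of every group except for 2 isotype mice in experiment 2, and lungs of all groups were taken at the same time point.

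Values are the deposited intensities of probe sets on a linear scale. Array medians were 120 to 125 in experiment 1 and 362 to 386 in experiment 2, so levels are compared only within an experiment, and differences are log2 differences with the experiment as a term of the fit. Of 10 lung markers, 9 stood above the 90th percentile of every array, and Scgb3a2, a secretory cell product, was as low as percentile 42.2. The 12 macrophage markers summed to 1.21 to 1.44 times the saline mean of the same experiment in anti-RGMb mice, 1.52 to 1.77 times in isotype mice and 0.927 to 1.07 times in saline mice. Heart muscle markers summed to 0.456 to 1.53 times in anti-RGMb mice, 0.283 to 0.688 times in isotype mice and 0.611 to 1.75 times in saline mice. Some arrays of an experiment held exactly equal values for the same probe set, at 4.37% to 6.62% of probe sets per pair of arrays in experiment 1 and 0.770% to 5.95% in experiment 2. Such ties touched 4 of the 8 genes in the anti-RGMb mice of experiment 2 (Tm4sf19, Acp5, Gpnmb and Trem2) and Acp5 in those of experiment 1, and none in isotype or saline mice. The shares are over all pairs of arrays of an experiment, so they do not show how usual such ties are within anti-RGMb mice. The part of these ties in the spread within groups was not tested.

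All 8 genes rose in isotype mice against saline mice, by 1.10 (Tyrobp) to 2.74 (Tm4sf19) on the log2 scale, past a threshold of 0.05 on limma's p-value adjusted over all genes, which 14.6% of all genes passed upwards. All 8 were lower in anti-RGMb mice than in isotype mice, by differences of -0.43 (Tyrobp) to -2.08 (Tm4sf19), in a comparison that called 10.0% of all genes lower. In anti-RGMb mice, Atp6v0d2, Acp5, Trem2 and Tyrobp stayed above saline past the threshold, as did 4.26% of all genes. The other 4 did not pass it, with estimates of 0.27 (Ocstamp) to 0.66 (Tm4sf19), which does not show a return to the saline level. The fit takes the spread of a gene from all groups, so differences between experiments among isotype mice also widen the errors of this comparison. The order of the group means was the same for every gene: isotype, then anti-RGMb, then saline.

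**Figure D1:**
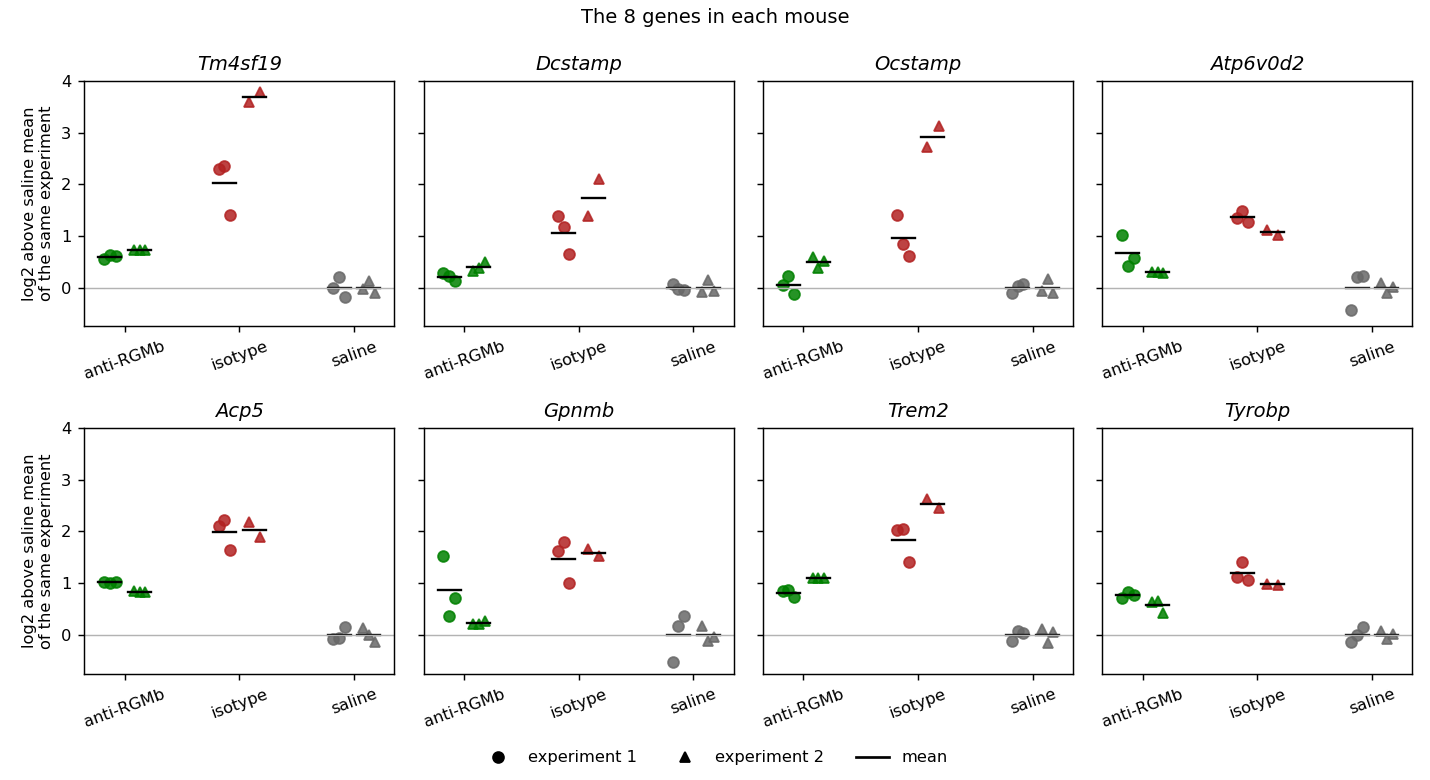
Level of each of the 8 genes in each mouse, as log2 above the saline mean of the same experiment (vertical axis), by group (horizontal axis). Circles are mice of experiment 1, triangles mice of experiment 2 and bars group means within an experiment; isotype mice lie above all saline mice in each panel, and Tm4sf19 and Ocstamp lie higher in isotype mice of experiment 2 than of experiment 1.

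Promoter windows, from 250 bases before to 50 bases after a transcription start, were taken from RefSeq (GRCm38.p6) for the genes whose levels move together here. Windows were matched by gene identifier for 4 of the 8 genes, with 3 start sites for Acp5 and 1 each for Tm4sf19, Gpnmb and Trem2, and Dcstamp, Ocstamp, Atp6v0d2 and Tyrobp are named only. Letters searched on both strands were TCANGTG (the box bound by MITF and TFE factors), TGANTCA (AP-1), GAGGAA (the core bound by PU.1) and GGAAAA (the core bound by NFAT), all factors of macrophage or osteoclast biology. Positions count from 1 at the first transcribed base, with negative numbers before it. The windows with a match, and that of Tm4sf19 as the gene that differed most, are shown with matched letters in capitals.
Tm4sf19 (chr16:32400256-32400555, plus strand): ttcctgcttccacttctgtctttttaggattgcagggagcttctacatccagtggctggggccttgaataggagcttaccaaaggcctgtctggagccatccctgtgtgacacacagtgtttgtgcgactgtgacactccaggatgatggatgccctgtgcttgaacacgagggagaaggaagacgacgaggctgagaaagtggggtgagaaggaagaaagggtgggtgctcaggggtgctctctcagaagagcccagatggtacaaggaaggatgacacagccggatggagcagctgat
Acp5, start 3 (chr9:22130549-22130848, minus strand): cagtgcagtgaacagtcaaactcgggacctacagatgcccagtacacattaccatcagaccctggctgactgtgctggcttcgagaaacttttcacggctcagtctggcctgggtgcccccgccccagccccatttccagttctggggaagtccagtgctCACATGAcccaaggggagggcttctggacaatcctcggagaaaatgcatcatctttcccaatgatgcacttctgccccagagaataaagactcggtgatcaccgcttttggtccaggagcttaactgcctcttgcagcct
Acp5, start 1 (chr9:22135697-22135996, minus strand): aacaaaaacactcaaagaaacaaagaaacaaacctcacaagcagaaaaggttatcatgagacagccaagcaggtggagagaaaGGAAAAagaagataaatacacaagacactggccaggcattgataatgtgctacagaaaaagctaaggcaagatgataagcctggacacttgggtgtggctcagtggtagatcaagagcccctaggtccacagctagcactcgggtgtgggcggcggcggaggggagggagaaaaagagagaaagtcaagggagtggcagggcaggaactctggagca
Gpnmb (chr6:49036268-49036567, plus strand): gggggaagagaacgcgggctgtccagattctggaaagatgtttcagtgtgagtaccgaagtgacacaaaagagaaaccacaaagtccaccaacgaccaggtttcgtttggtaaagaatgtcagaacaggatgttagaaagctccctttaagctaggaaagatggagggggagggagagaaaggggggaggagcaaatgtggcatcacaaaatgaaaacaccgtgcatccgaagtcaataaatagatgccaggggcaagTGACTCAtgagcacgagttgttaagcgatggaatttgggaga
Trem2 (chr17:48346151-48346450, plus strand): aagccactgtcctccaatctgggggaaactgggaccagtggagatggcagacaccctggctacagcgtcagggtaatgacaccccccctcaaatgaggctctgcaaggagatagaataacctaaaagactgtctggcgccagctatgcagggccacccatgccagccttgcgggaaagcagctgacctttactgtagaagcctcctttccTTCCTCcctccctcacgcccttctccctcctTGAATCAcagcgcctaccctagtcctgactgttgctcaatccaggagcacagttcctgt
The AP-1 letters stood at 9 to 15 in Gpnmb and at -9 to -3 in Trem2, close to the start in both. They were found in 7.81% of all 32851 windows of the table. The MITF box stood at -90 to -84 of Acp5 start 3, on the opposite strand, and in 14.3% of all windows. The PU.1 core stood at -40 to -35 of Trem2, on the opposite strand, and in 28.3% of all windows, and the NFAT core at -167 to -162 of Acp5 start 1 and in 23.4%. No 2 matches overlapped, and the Tm4sf19 window held none of these letters. That window begins at base 32400256, past the first base listed for the gene (32400012), so the sequence around that first base was not searched. A match describes the letters of the window and is not a measured site.

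Tm4sf19, a membrane protein of the L6 family linked to the multinucleation of osteoclasts, differed most of the 8 genes in both comparisons with isotype mice. In experiment 1 its intensities were 86.7, 91.4 and 90.2 in anti-RGMb mice, 292, 303 and 156 in isotype mice and 58.6, 67.8 and 52.0 in saline mice. In experiment 2 they were 273, 273 and 273 in anti-RGMb mice, 1985 and 2273 in isotype mice and 161, 180.3 and 154 in saline mice. The groups did not overlap in either experiment, and isotype mouse 3 of experiment 1 was about midway on the log2 scale between the other isotype mice and the anti-RGMb mice. The log2 difference of isotype from saline mice was 2.74 ± 0.25 (SE, adjusted p = 1.51e-07), or 6.67-fold. The isotype arrays are those of the fall already known, so this p-value is a description. The difference of anti-RGMb from isotype mice was -2.08 ± 0.25, and without isotype mouse 3 of experiment 1 it was -2.35. Relative to the saline mean, Tm4sf19 averaged 0.66 ± 0.08 in anti-RGMb mice and 2.69 ± 0.99 in isotype mice (log2, SD, n = 6 and 5). These SDs hold the difference between experiments. On the same scale anti-RGMb mice lay at 0.55 to 0.63 in experiment 1 and all at 0.73 in experiment 2, where their 3 values were exactly equal, and isotype mice lay at 1.40 to 2.36 in experiment 1 and at 3.59 and 3.78 in experiment 2.

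Against saline mice, Tm4sf19 in anti-RGMb mice was 0.66 higher on the log2 scale (95% interval 0.16 to 1.17, adjusted p = 0.117), although every anti-RGMb mouse lay above every saline mouse of its experiment. The SE of 0.24 holds residuals of all groups, among them the isotype mice, whose level differed between experiments. With a mean per group and experiment, the difference was 0.60 ± 0.18 in experiment 1 and 0.73 ± 0.18 in experiment 2 (SE). The adjusted p was 0.0239 without isotype mouse 3 of experiment 1. It was 1.91e-05 in a fit of the anti-RGMb and saline mice alone, which also holds the 3 exactly equal anti-RGMb values of experiment 2. It was 0.0101 with arrays weighted by quality and 0.00264 with experiment 2 alone, where the 3 anti-RGMb values are equal, against 0.241 with experiment 1 alone. These were the 4 of 29 alternatives, not counting the fit without the experiment term, in which Tm4sf19 passed the threshold against saline mice, and the highest adjusted p was 0.286.

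Dcstamp encodes DC-STAMP, a membrane protein needed for the fusion of osteoclasts and giant cells in mice. Experiment 1 gave intensities of 36.3, 34.7 and 32.5 in anti-RGMb mice, 77.7, 67.3 and 46.7 in isotype mice and 31.5, 29.1 and 29.0 in saline mice. Experiment 2 gave 113, 119 and 128 in anti-RGMb mice, 239 and 388 in isotype mice and 85.9, 100.5 and 86.8 in saline mice. Isotype mice were above all other mice of their experiment, while the levels of anti-RGMb and saline mice were below the lower quartile of the arrays, where intensity follows RNA level least well. Dcstamp rose by 1.36 ± 0.14 in isotype against saline mice (adjusted p = 7.71e-07). In anti-RGMb against isotype mice it fell, with a difference of -1.06 ± 0.14 (adjusted p = 5.84e-05). The difference of anti-RGMb from saline mice was 0.30 (95% interval 0.02 to 0.59, adjusted p = 0.229), and it passed the threshold in 2 of 28 alternatives, not counting the fit without the experiment term. The adjusted p was 0.0476 with arrays weighted by quality, 0.00466 in a fit of those groups alone and at most 0.602, with experiment 1 alone. Because the gene was dim outside the isotype group, the sizes of its rise and its fall are uncertain.

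Ocstamp encodes OC-STAMP, a relative of DC-STAMP that also takes part in the fusion of osteoclasts. In experiment 1 its intensities were 77.4, 87.8 and 68.6 in anti-RGMb mice, 199, 135 and 115 in isotype mice and 69.9, 77.0 and 78.2 in saline mice. The mice of experiment 2 had intensities of 317, 273 and 298 in anti-RGMb mice, 1381 and 1829 in isotype mice and 201, 237 and 194 in saline mice. Anti-RGMb and saline mice overlapped in experiment 1 and not in experiment 2, and isotype mice stood above both in each. Ocstamp rose by 1.82 ± 0.27 in isotype against saline mice (adjusted p = 3.2e-05) and fell in anti-RGMb against isotype mice (difference -1.54 ± 0.27, adjusted p = 0.00048). The difference of anti-RGMb from saline mice was 0.27 (95% interval -0.26 to 0.81, adjusted p = 0.656), with 0.05 in experiment 1 and 0.50 in experiment 2. Without saline mouse 3 of experiment 2 it was 0.17, and without saline mouse 1 of that experiment 0.18.

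Atp6v0d2 encodes the d2 subunit of the proton pump (vacuolar ATPase), which is enriched in osteoclasts and some macrophages and is needed for osteoclast fusion in mice. Experiment 1 gave intensities of 1581, 1053 and 1165 in anti-RGMb mice, 2006, 2182 and 1903 in isotype mice and 581, 903 and 922 in saline mice. In experiment 2 they were 3135, 3164 and 3106 in anti-RGMb mice, 5573 and 5170.4 in isotype mice and 2733, 2373 and 2578 in saline mice. Isotype mice were highest in both experiments with no overlap, anti-RGMb mouse 1 of experiment 1 was the highest of its group, and saline mouse 1 of experiment 1 was the lowest of its own. Atp6v0d2 rose by 1.23 ± 0.12 in isotype against saline mice (adjusted p = 3.49e-07) and fell in anti-RGMb against isotype mice (difference -0.75 ± 0.12, adjusted p = 0.000271). It stayed 0.48 ± 0.11 higher in anti-RGMb than in saline mice (adjusted p = 0.0152). With experiment 1 alone the difference from isotype mice was -0.70 (adjusted p = 0.0728) and that from saline mice 0.67 (adjusted p = 0.124), and with experiment 2 alone the difference from saline mice was 0.29 (adjusted p = 0.116).

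Acp5 encodes tartrate-resistant acid phosphatase (TRAP), the enzyme by which osteoclasts are stained. In experiment 1 its intensities were 536, 530.5 and 536 in anti-RGMb mice, 1140.2, 1230.3 and 819.8 in isotype mice and 249, 253 and 291 in saline mice. Experiment 2 gave 1575, 1558 and 1558 in anti-RGMb mice, 3960.2 and 3257 in isotype mice and 963, 874 and 797 in saline mice. The 3 groups were fully apart in both experiments, and anti-RGMb mice lay about midway between the other groups on the log2 scale. Relative to the saline mean, Acp5 averaged 0.93 ± 0.10 in anti-RGMb mice and 2.01 ± 0.24 in isotype mice (log2, SD, n = 6 and 5). Acp5 rose by 2.00 ± 0.09 in isotype against saline mice (adjusted p = 5.23e-11), or 4.01-fold. It fell in anti-RGMb against isotype mice (difference -1.08 ± 0.09, adjusted p = 1.68e-06) and stayed 0.93 ± 0.09 above saline mice (adjusted p = 1.89e-06).

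Gpnmb, a glycoprotein of lysosomes and the cell surface that is high in lipid-laden and injury-associated macrophages, had the widest spread of the 8 genes among anti-RGMb mice and among saline mice. Experiment 1 gave intensities of 383, 171 and 217 in anti-RGMb mice, 409, 462 and 266 in isotype mice and 91.6, 149 and 171 in saline mice. The mice of experiment 2 had intensities of 762, 762 and 786 in anti-RGMb mice, 2079 and 1877 in isotype mice and 740.5, 604 and 633 in saline mice. Anti-RGMb mouse 1 of experiment 1 was above isotype mouse 3, so these groups overlapped there, and they were apart in experiment 2. Gpnmb rose by 1.50 ± 0.21 in isotype against saline mice (adjusted p = 1.91e-05) and fell in anti-RGMb against isotype mice (difference -0.95 ± 0.21, adjusted p = 0.00326). The fall was -0.61 with experiment 1 alone (adjusted p = 0.358). The difference of anti-RGMb from saline mice was 0.55 (95% interval 0.13 to 0.97, adjusted p = 0.122), with 0.87 in experiment 1 and 0.23 in experiment 2, and it was 0.36 without anti-RGMb mouse 1 of experiment 1.

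Trem2 encodes a receptor for lipids that signals through the adaptor made from Tyrobp, DAP12, which also serves many other receptors of myeloid and natural killer cells. In experiment 1 Trem2 intensities were 222, 224 and 206 in anti-RGMb mice, 506, 509 and 327 in isotype mice and 114, 130.1 and 127 in saline mice. In experiment 2 they were 1030.2, 1030.2 and 1030.2 in anti-RGMb mice, 2940.1 and 2626 in isotype mice and 519, 427 and 495 in saline mice. Those 3 anti-RGMb values were exactly equal, so they show no spread among these mice. The 3 groups were fully apart in both experiments, with anti-RGMb mice between the others. Trem2 rose by 2.14 ± 0.13 in isotype against saline mice (adjusted p = 7.5e-10), or 4.41-fold. It fell in anti-RGMb against isotype mice (difference -1.18 ± 0.13, adjusted p = 8.06e-06) and stayed 0.96 ± 0.12 above saline mice (adjusted p = 4.41e-05).

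Tyrobp intensities in experiment 1 were 479.7, 522 and 499 in anti-RGMb mice, 640.3, 787 and 610.5 in isotype mice and 268, 293 and 326 in saline mice. Experiment 2 gave 4472, 4534 and 3874 in anti-RGMb mice, 5719 and 5646 in isotype mice and 3041, 2701 and 2904 in saline mice. Its groups were also fully apart, with narrower gaps than those of Trem2. Its probe set ranked at percentile 68.4 to 72.8 of the arrays in saline mice of experiment 1 and at 92.8 to 93.7 in those of experiment 2, a shift of rank between experiments that Trem2 did not share to that extent (47.5 to 50.4 and 51.8 to 55.4). Tyrobp rose by 1.10 ± 0.07 in isotype against saline mice (adjusted p = 4.12e-09). It fell in anti-RGMb against isotype mice (difference -0.43 ± 0.07, adjusted p = 0.000505) and stayed 0.67 ± 0.07 above saline mice (adjusted p = 7.7e-06).

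Counted together, 8 of the 8 genes passed the threshold upwards in isotype against saline mice, with a median log2 difference of 1.66, against a median of -0.04 over all genes, of which 14.6% were called higher and 21.0% lower. In anti-RGMb against isotype mice all 8 were lower with a median of -1.07 (7 of 7 tested past the threshold, and Tm4sf19 lower by estimate), against a median of 0.03 over all genes, of which 11.1% were called higher and 10.0% lower. In anti-RGMb against saline mice 4 of the 8 were called higher and none lower, with a median of 0.61, against a median of -0.01 over all genes, of which 4.26% were called higher and 2.24% lower. Since the genes were listed with such results known, these counts are given as a description. The comparisons share the same arrays and are not independent of each other. With the mice of both experiments pooled as log2 above the saline mean of the same experiment, all isotype mice lay above all saline mice for 8 of 8 genes, as for 10.6% of all genes. Pooled in this way, anti-RGMb mice were all below isotype mice for 7 of 8 genes (5.12% of all genes), the exception being Gpnmb, and all above saline mice for 5 of 8 (4.18% of all genes), the exceptions being Dcstamp, Ocstamp and Gpnmb. Within experiment 1 all anti-RGMb mice were above all saline mice for 7 of 8 genes (8.56% of all genes), the exception being Ocstamp, and within experiment 2 for 8 of 8 (8.07% of all genes).

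**Figure D2:**
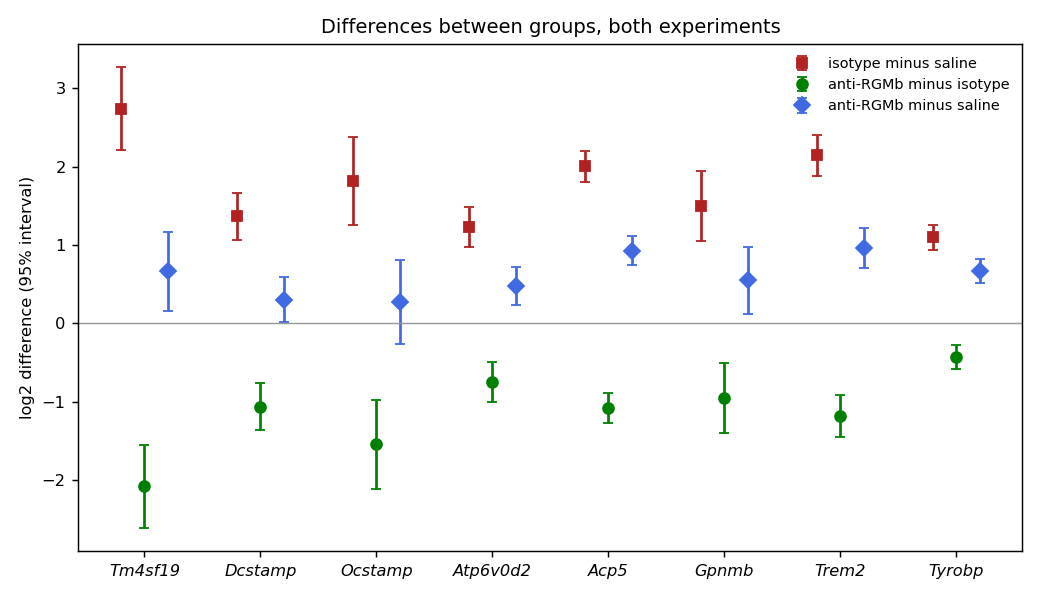
Log2 difference of each gene in the 3 comparisons, from the fit over 17 arrays with the experiment as a term. Points are estimates and bars 95% intervals not adjusted for the number of genes; the intervals of anti-RGMb minus saline reach down to -0.26 for Ocstamp and lie at 0.71 to 1.21 for Trem2.

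The rise in isotype mice was larger in experiment 2 for the fusion genes Tm4sf19 and Ocstamp. Tm4sf19 was higher in isotype than in saline mice by 2.02 in experiment 1 and 3.69 in experiment 2, a difference between experiments of 1.67 ± 0.27 (SE, adjusted p = 0.00937 for the interaction). Ocstamp was higher by 0.96 in experiment 1 and 2.92 in experiment 2, a difference of 1.97 ± 0.25 (adjusted p = 0.00122). These were 2 of the 132 genes (0.668% of all genes) whose rise or fall in isotype mice differed between experiments past the threshold. For the other 6 genes the interaction did not pass it, with adjusted p of 0.133 for Trem2 (1.83 in experiment 1 and 2.54 in experiment 2) to 0.986 for Acp5 (1.99 in experiment 1 and 2.04 in experiment 2). Experiment 2 held 2 isotype mice. With arrays weighted by quality the adjusted p of the interaction was 0.111 for Tm4sf19 and 0.0163 for Ocstamp.

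The fall under anti-RGMb was likewise larger in experiment 2 for Ocstamp. It was lower than in isotype mice by estimates of -0.91 in experiment 1 and -2.43 in experiment 2, a difference between experiments of -1.52 ± 0.25 (adjusted p = 0.0165, or 0.264 with arrays weighted by quality). Ocstamp was 1 of 93 genes (0.471% of all genes) with such a difference past the threshold. The estimates for Tm4sf19 were -1.42 in experiment 1 and -2.96 in experiment 2, given with no test. For Acp5 they were -0.97 in experiment 1 and -1.20 in experiment 2, and for Tyrobp -0.43 in experiment 1 and -0.41 in experiment 2. The isotype arrays enter both comparisons.

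**Figure D3:**
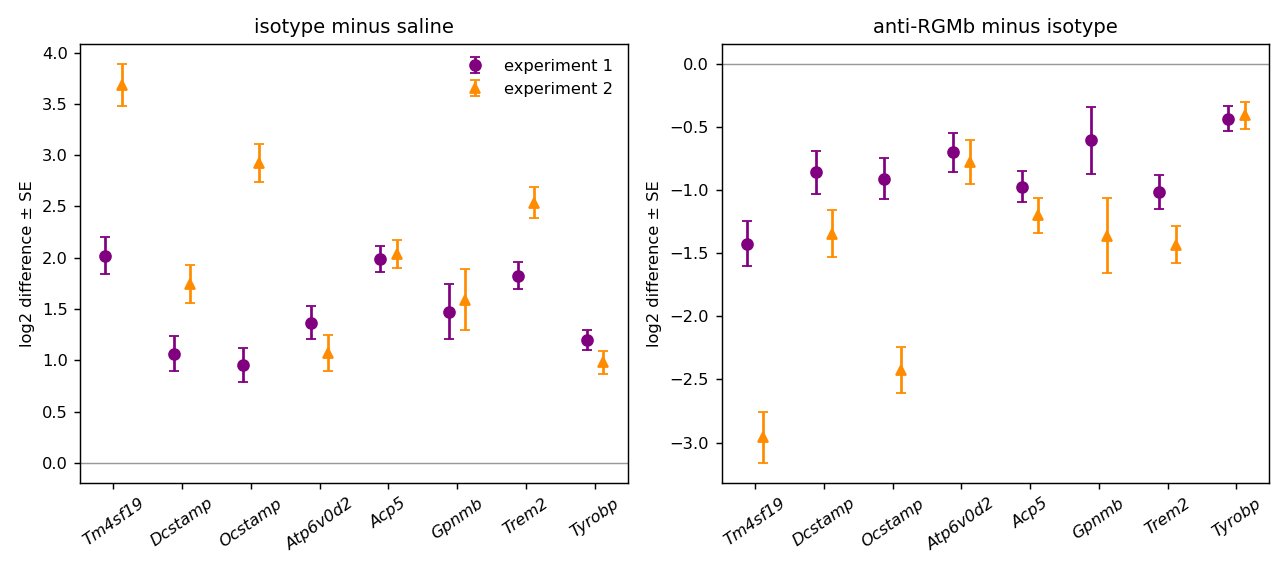
Log2 differences within experiment 1 (circles) and experiment 2 (triangles) for isotype minus saline (left) and anti-RGMb minus isotype (right), with bars of 1 standard error. The experiments lie far apart for Tm4sf19 (2.02 and 3.69 on the left) and Ocstamp (0.96 and 2.92), and close for Acp5 (1.99 and 2.04).

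Deviations of the mice from the mean of their own group and experiment show which genes vary together with no group difference in them. Over 17 arrays the Pearson correlations of the 28 pairs of genes were -0.07 to 0.92 with a median of 0.39, and 25 were above 0. Atp6v0d2 and Gpnmb varied most alike (r = 0.92), as seen in anti-RGMb mouse 1 of experiment 1, high in both, and saline mouse 1 of that experiment, low in both. Acp5 and Trem2 correlated at 0.82, Dcstamp and Ocstamp at 0.78, Tm4sf19 and Dcstamp at 0.74 and Tm4sf19 and Trem2 at 0.72. Atp6v0d2 did not follow the fusion genes, with r of 0.06 with Tm4sf19, -0.07 with Dcstamp and 0.00 with Ocstamp. Isotype mouse 3 of experiment 1 was the lowest of the 3 isotype mice of that experiment in 8 of 8 genes. The points share arrays and their quality, and some hold tied values, so these correlations are a description of 17 arrays.

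**Figure D4:**
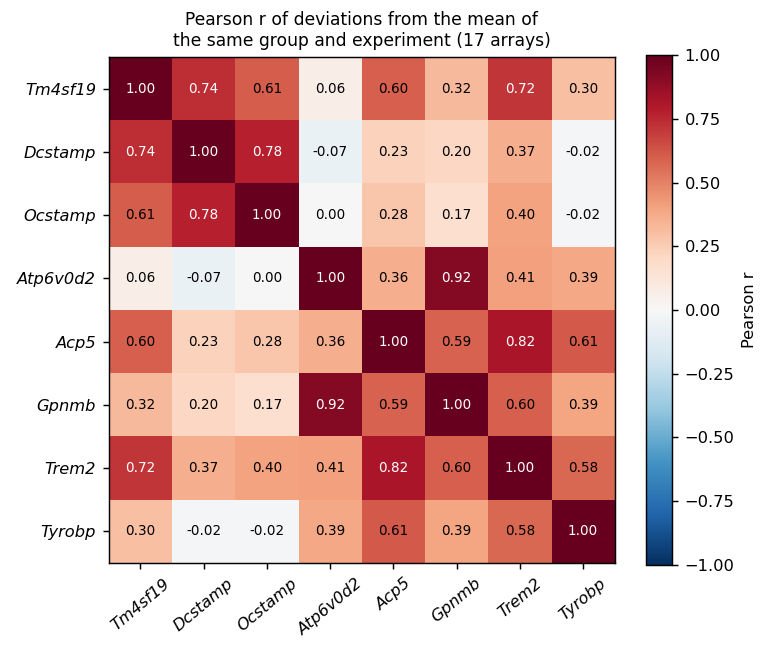
Pearson correlation between each pair of the 8 genes over 17 arrays, computed on log2 values after the mean of the same group and experiment was subtracted. Colour and printed value give r; the highest is 0.92 between Atp6v0d2 and Gpnmb, and the 3 fusion genes (Tm4sf19, Dcstamp and Ocstamp) correlate at 0.61 to 0.78 with each other.

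With the group differences kept in, each gene had close followers among all genes, by Pearson r of log2 values above the saline mean over the 17 arrays. The nearest to Tm4sf19 were Gpr84 (0.992), a receptor for medium-chain fatty acids, Npl (0.992) and Tmem26 (0.990). The nearest to Dcstamp were Mmp13 (0.982), a collagenase, Snd1 (0.979) and Slc7a5 (0.974), a large amino acid transporter chain, and those to Ocstamp were Lrp8 (0.983), Stac2 (0.973) and Efcab11 (0.970). Atp6v0d2 was followed by Ctsc (0.986), a lysosomal protease, Sirpa (0.983), the receptor for CD47, and Tlr8 (0.978). Acp5 was followed by Gusb (0.991) and Man2b1 (0.989), both lysosomal glycosidases, and Sulf2 (0.988). Gpnmb was followed by Lrp12 (0.984), Scamp2 (0.973) and Pla2g15 (0.970), a lysosomal phospholipase. The nearest to Trem2 were Aqp9 (0.990), a channel for water and glycerol, Rab3il1 (0.990) and Knstrn (0.986). Those to Tyrobp were Ly86 (0.988), Laptm5 (0.986) and Cd68 (0.986), genes of leukocytes and macrophages. These likenesses hold the shared group differences.

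The other genes of these pathways were read from lists, each with its measured members and counts past the threshold, and values after ± in these lists are SEs of the log2 difference. For comparison, 14.6% of all genes were called higher and 21.0% lower in isotype against saline mice. The shares were 11.1% and 10.0% in anti-RGMb against isotype mice, and 4.26% and 2.24% in anti-RGMb against saline mice. Of 26 genes of the fusion machinery, 12 rose and 3 fell in isotype against saline mice (median 0.15), and 1 rose and 11 fell in anti-RGMb against isotype mice (median -0.13). In anti-RGMb against saline mice 8 rose and none fell. Adam8, a metalloprotease of the leukocyte surface, differed by 2.42 ± 0.13 in isotype against saline mice and -0.91 ± 0.13 in anti-RGMb against isotype mice (adjusted p = 4.08e-10 and 0.000115). The CD200 receptor Cd200r1 differed by 1.92 ± 0.12 in isotype against saline mice and -0.98 ± 0.12 in anti-RGMb against isotype mice and Sirpa by 0.71 ± 0.05 in isotype against saline mice and -0.42 ± 0.05 in anti-RGMb against isotype mice. The integrin chain Itgb2, found on leukocytes, differed by 1.21 ± 0.07 in isotype against saline mice and -0.44 ± 0.07 in anti-RGMb against isotype mice. Cd81, a tetraspanin, named after its values were seen as the gene that went the other way in both, differed by -0.36 ± 0.06 in isotype against saline mice and 0.30 ± 0.06 in anti-RGMb against isotype mice.

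Osteoclasts form under the cytokines CSF1 and RANKL through a set of transcription factors, and 24 genes of this signalling were read. Of these, 15 rose and 2 fell in isotype against saline mice (median 0.25), 1 rose and 13 fell in anti-RGMb against isotype mice (median -0.23), and 5 rose in anti-RGMb against saline mice. The CSF1 receptor Csf1r differed by 1.44 ± 0.08 in isotype against saline mice and -0.65 ± 0.08 in anti-RGMb against isotype mice, and Csf2rb, the shared chain of the receptors for GM-CSF, IL-3 and IL-5, by 1.52 ± 0.09 in isotype against saline mice and -0.75 ± 0.09 in anti-RGMb against isotype mice. Tfec, a transcription factor of the MITF family found in macrophages, differed by 1.95 ± 0.13 in isotype against saline mice and -1.23 ± 0.13 in anti-RGMb against isotype mice (adjusted p = 3.14e-09 and 7.52e-06). Named after their values were seen, Mitf itself differed by 0.67 ± 0.08 in isotype against saline mice and -0.53 ± 0.08 in anti-RGMb against isotype mice, and the RANK receptor Tnfrsf11a by 0.51 ± 0.07 in isotype against saline mice and -0.31 ± 0.07 in anti-RGMb against isotype mice.

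Of 18 effector genes of osteoclasts, 9 rose and 2 fell in isotype against saline mice (median 0.22), and 7 fell and none rose in anti-RGMb against isotype mice (median -0.17). Ctsk, the collagen-degrading cathepsin K, differed by 2.57 ± 0.17 in isotype against saline mice and -1.37 ± 0.17 in anti-RGMb against isotype mice (adjusted p = 3.21e-09 and 3.03e-05), and stayed 1.20 above saline in anti-RGMb mice (adjusted p = 0.000111). Slc37a2, a sugar-phosphate transporter, differed by 1.59 ± 0.12 in isotype against saline mice and -0.91 ± 0.12 in anti-RGMb against isotype mice, Tcirg1, the a3 chain of the osteoclast proton pump, by 0.96 ± 0.10 in isotype against saline mice and -0.46 ± 0.10 in anti-RGMb against isotype mice, and the membrane collagenase Mmp14 by 0.59 ± 0.06 in isotype against saline mice and -0.36 ± 0.06 in anti-RGMb against isotype mice. Other osteoclast genes, named after their values were seen, did not share this: the calcitonin receptor Calcr differed by -0.46 in isotype against saline mice (adjusted p = 0.00441), the integrin Itgb3 by 0.05 (adjusted p = 0.738) and the receptor Oscar by -0.04 (adjusted p = 0.715). Over 9 defining osteoclast markers 3 rose and 1 fell in isotype against saline mice (all genes: 14.6% and 21.0%). Of these 9 markers, 2 fell in anti-RGMb against isotype mice (all genes: 10.0%). Their summed intensity was 1.07 to 1.22 times the saline mean in anti-RGMb mice, 1.42 to 1.64 times in isotype mice and 0.949 to 1.06 times in saline mice, and none of the 9 was below the lower quartile of the arrays. Brighter genes weigh more in such a sum. The median log2 difference of the 9 in isotype against saline mice was 0.17, against 2.57 for Ctsk, which is 1 of them.

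Of 27 measured genes among 28 receptors that use TYROBP and their signalling partners (Sirpb1a was not analysed here), 21 rose and 2 fell in isotype against saline mice (median 0.68). In anti-RGMb against isotype mice 2 rose and 18 fell (median -0.31), and in anti-RGMb against saline mice 12 rose and none fell. The kinase Syk, which binds the tyrosine motif of the adaptor, differed by 1.26 ± 0.07 in isotype against saline mice and -0.63 ± 0.07 in anti-RGMb against isotype mice (adjusted p = 6.59e-10 and 1.57e-05). Btk, a kinase downstream of it, differed by 1.46 ± 0.09 in isotype against saline mice and -0.81 ± 0.09 in anti-RGMb against isotype mice, the scaffold Lcp2 by 1.36 ± 0.08 in isotype against saline mice and -0.53 ± 0.08 in anti-RGMb against isotype mice, the exchange factor Vav1 by 1.38 ± 0.10 in isotype against saline mice and -0.81 ± 0.10 in anti-RGMb against isotype mice and the receptor Cd300lb by 1.66 ± 0.11 in isotype against saline mice and -0.83 ± 0.11 in anti-RGMb against isotype mice. The exceptions that fell in isotype mice and rose in anti-RGMb against isotype mice, named after their values were seen, were Treml1, a receptor of platelets (-0.40 ± 0.12 in isotype against saline mice and 0.39 ± 0.12 in anti-RGMb against isotype mice), and Treml4 (-0.39 ± 0.10 in isotype against saline mice and 0.63 ± 0.10 in anti-RGMb against isotype mice).

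Of 35 measured genes among 38 of lipid-associated macrophages, the cells in which Trem2 and Gpnmb are most often described (Spp1, Apoc2 and Gdf15 were not analysed here), 27 rose and 2 fell in isotype against saline mice (median 0.67). In anti-RGMb against isotype mice 1 rose and 24 fell (median -0.47), and in anti-RGMb against saline mice 17 rose and 1 fell (median 0.28). Itgax, the integrin CD11c, differed by 2.13 ± 0.10 in isotype against saline mice and -1.04 ± 0.10 in anti-RGMb against isotype mice (adjusted p = 5.83e-11 and 3.64e-06). Pla2g7, a lipase that breaks down platelet-activating factor, differed by 2.00 ± 0.09 in isotype against saline mice and -0.88 ± 0.09 in anti-RGMb against isotype mice, the growth factor Igf1 by 2.02 ± 0.10 in isotype against saline mice and -1.01 ± 0.10 in anti-RGMb against isotype mice and the surface receptor Cd84 by 1.64 ± 0.08 in isotype against saline mice and -0.80 ± 0.08 in anti-RGMb against isotype mice.

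Relatives of 3 of the genes were read in the same way. Of 23 measured of 24 subunits of the vacuolar ATPase (Atp6v0c was not analysed here), 13 rose and 2 fell in isotype against saline mice (median 0.19), 1 rose and 10 fell in anti-RGMb against isotype mice (median -0.20), and 1 rose in anti-RGMb against saline mice. Atp6v0d1, the widely expressed counterpart of Atp6v0d2, differed by 0.28 ± 0.05 in isotype against saline mice and -0.24 ± 0.05 in anti-RGMb against isotype mice, against 1.23 and -0.75 for Atp6v0d2. The general subunits Atp6v1b2 (0.47 ± 0.05 in isotype against saline mice and -0.32 ± 0.05 in anti-RGMb against isotype mice) and Atp6ap2 (0.49 ± 0.08 in isotype against saline mice and -0.38 ± 0.08 in anti-RGMb against isotype mice) stood between Atp6v0d1 and Atp6v0d2 in both comparisons, and Atp6v0e2 went the other way (-0.52 ± 0.07 in isotype against saline mice and 0.31 ± 0.07 in anti-RGMb against isotype mice). Of 5 measured of 6 other acid phosphatases (Acp3 was not analysed here), the lysosomal Acp2 rose (0.47 ± 0.08 in isotype against saline mice and -0.29 ± 0.08 in anti-RGMb against isotype mice), Acp6 fell in isotype against saline mice (-0.23, adjusted p = 0.00822), and Acp1 differed by 0.10 (adjusted p = 0.234). These counts of 1 higher and 1 lower of 5 in isotype against saline mice lay near the shares of all genes (14.6% and 21.0%). Of the 4 other measured genes of the L6 family of Tm4sf19, Tm4sf5 rose (0.92 ± 0.12 in isotype against saline mice and -0.54 ± 0.12 in anti-RGMb against isotype mice), Tm4sf1, a gene of endothelium, went the other way in both comparisons (-0.73 ± 0.06 in isotype against saline mice and 0.53 ± 0.06 in anti-RGMb against isotype mice), and Tm4sf4 was below the lower quartile of the arrays in every group.

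**Figure D5:**
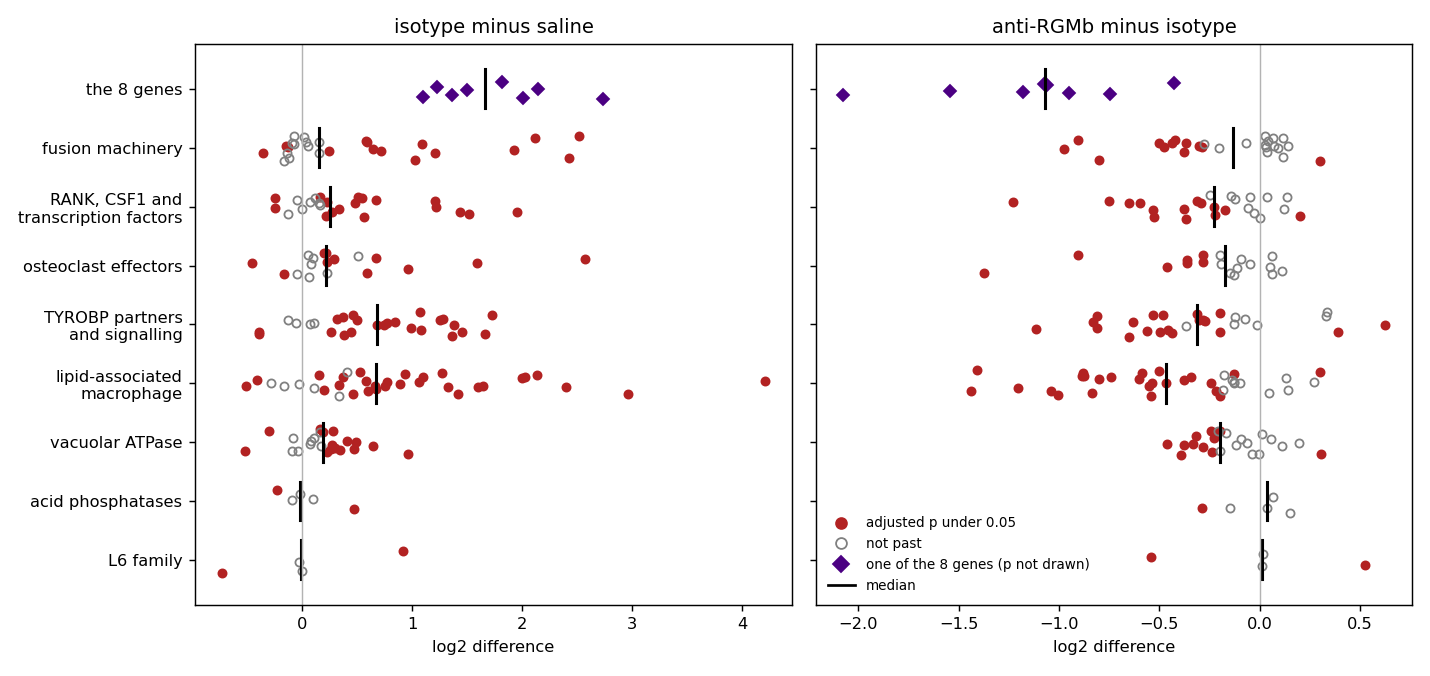
Log2 differences of the 8 genes (diamonds) and of the measured genes of 8 pathway lists (circles, filled where the adjusted p was under 0.05), for isotype minus saline (left) and anti-RGMb minus isotype (right). Vertical bars are medians: 0.68 and -0.31 for TYROBP partners, 0.67 and -0.47 for lipid-associated macrophage genes and 1.66 and -1.07 for the 8 genes, whose place follows from how they were listed.

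Macrophage and leukocyte markers moved with the 8 genes. The leukocyte markers Itgb2 and Rac2 and the macrophage markers Cd68, Csf1r, Mertk and Msr1 also stand in the pathway lists above. Counts of these lists therefore share genes. Of 12 macrophage markers 10 rose and none fell in isotype against saline mice (median 1.32), 9 fell and none rose in anti-RGMb against isotype mice (median -0.51), and 9 rose in anti-RGMb against saline mice (median 0.70). All 10 leukocyte markers rose, fell and rose in the same comparisons (medians 0.96, -0.39 and 0.53). Over all genes 14.6% were called higher and 21.0% lower in isotype against saline mice, and 11.1% and 10.0% in anti-RGMb against isotype mice. Against saline mice, 4.26% were called higher in anti-RGMb mice. Markers of interstitial macrophages and monocytes summed to 1.42 to 1.74 times the saline mean in anti-RGMb mice, 1.85 to 2.30 times in isotype mice and 0.933 to 1.09 times in saline mice. Those of alveolar macrophages summed to 1.26 to 1.89 times in anti-RGMb mice, 1.37 to 2.22 times in isotype mice and 0.934 to 1.06 times in saline mice, with 5 of 12 higher and 4 lower in isotype against saline mice. Sums of intensities weigh brighter genes more. The median log2 difference of these 12 in isotype against saline mice was 0.11, while Chil3, named after its values were seen, rose by 3.96. Eosinophil markers summed to 1.55 to 3.01 times in anti-RGMb mice, 2.90 to 4.34 times in isotype mice and 0.891 to 1.08 times in saline mice. Of 9 lymphocyte markers 7 rose and 1 fell in isotype against saline mice and 6 fell in anti-RGMb against isotype mice, with sums of 0.947 to 1.55 times in anti-RGMb mice, 1.39 to 1.98 times in isotype mice and 0.877 to 1.12 times in saline mice. Of 10 neutrophil markers 5 rose in isotype against saline mice and 3 fell in anti-RGMb against isotype mice, with sums of 0.756 to 2.06 times in anti-RGMb mice, 1.66 to 2.41 times in isotype mice and 0.769 to 1.42 times in saline mice. Dendritic cell markers summed to 1.18 to 1.61 times in anti-RGMb mice, 1.42 to 1.58 times in isotype mice and 0.922 to 1.05 times in saline mice, with 5 of 10 higher and 1 lower in isotype against saline mice. Of 9 mast cell markers 6 rose and 2 fell in that comparison, and 4 of the 9 were below the lower quartile of the arrays in saline mice. They summed to 0.915 to 1.05 times in anti-RGMb mice, 0.933 to 0.992 times in isotype mice and 0.974 to 1.03 times in saline mice. Of 8 natural killer cell markers 1 rose and 2 fell in isotype against saline mice, near the shares of all genes. The 10 lung markers went the other way, with 1 higher and 6 lower in isotype against saline mice and 5 higher and 1 lower in anti-RGMb against isotype mice, as did the 10 heart muscle markers, with 9 lower and then 5 higher. In RNA of a mixed tissue, fewer cells of a type and less RNA per cell cannot be told apart. The part of these marker levels in the results was not tested.

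As a description of size, the mean log2 rise of the 12 macrophage markers above saline was 0.77 ± 0.15 in anti-RGMb mice and 1.36 ± 0.15 in isotype mice (SD, n = 6 and 5). With that mean subtracted mouse by mouse, Acp5 stood at 0.16 ± 0.09 in anti-RGMb mice and 0.65 ± 0.18 in isotype mice, and Trem2 at 0.19 ± 0.29 in anti-RGMb mice and 0.75 ± 0.39 in isotype mice. Tm4sf19 stood at -0.11 ± 0.22 in anti-RGMb mice and 1.33 ± 0.91 in isotype mice. Ocstamp stood at -0.50 ± 0.40 in anti-RGMb mice and 0.38 ± 1.08 in isotype mice, and Dcstamp at -0.47 ± 0.25 in anti-RGMb mice and -0.02 ± 0.44 in isotype mice. Gpnmb stood at -0.22 ± 0.40 in anti-RGMb mice and 0.16 ± 0.20 in isotype mice, and Atp6v0d2 at -0.29 ± 0.17 in anti-RGMb mice and -0.11 ± 0.23 in isotype mice. Tyrobp stood at -0.10 ± 0.11 in anti-RGMb mice and -0.25 ± 0.18 in isotype mice, and was the gene of the 8 whose subtracted level was not higher in isotype mice. Acp5 and Tm4sf19 were higher in all isotype mice than in all anti-RGMb mice after the subtraction, as were 0.37% of all genes, while the ranges of the other 6 genes overlapped. The subtracted mean was itself higher in isotype mice, which shifts every gene alike, and 71.7% of all genes then lay wholly the other way. The 0.37% is therefore not a neutral share. The SDs after the subtraction hold the difference between experiments.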

How the data were processed

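Lung RNA of 17 mice was measured on 1 array each. The authors deposited a linear intensity per probe set, summarised with RMA per the submitters' processing notes (RMA version and genome build: not given in the sources used here). Values of 3.02 to 20186 show a linear scale. Of 24679 probe sets, the 21354 with a single gene symbol gave 19751 genes, each as its brightest probe set. The log2 of each intensity was fitted with limma 3.58.1 in R 4.3.3, with 3 group means and an experiment term (eBayes, prior degrees of freedom 4.32); differences within experiments and their interaction came from another model whose means were those of each group in each experiment. P-values were two-sided and adjusted by Benjamini-Hochberg over all 19751 genes of a comparison, with a threshold of 0.05, and the fit was tested on simulated data. The number of arrays limits the precision. The genes and all lists were chosen with earlier results of these data known. Named list genes are the 3 with the smallest p in isotype minus saline and the 3 in anti-RGMb minus isotype, and named neighbours are the 3 genes of highest r. Same-numbered mice deviated from their group means with correlations of -0.60 to 0.30 over 16 pairs, above 0.1 in 3. Deviations from means of so few mice cannot show whether the numbers pair the mice. Pairing is therefore not known, and mice entered unpaired. Alternatives covered scaling, filters, probe sets, a constant added before the log, variance models, weights, blocks, single experiments, and leaving out each mouse.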

Additional observations from a re-analysis of the deposited data

Results flagged for a closer look

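The rise in isotype against saline mice differed between the experiments by the interaction test for 2 of the 8 genes. For Tm4sf19 the difference of experiment 2 minus experiment 1 was 1.67 on the log2 scale (adjusted p = 0.00937), from 2.02 in experiment 1 and 3.69 in experiment 2. For Ocstamp it was 1.97 (adjusted p = 0.00122), from 0.96 in experiment 1 and 2.92 in experiment 2. The fall of Ocstamp in anti-RGMb against isotype mice also differed, by -1.52 (adjusted p = 0.0165), with estimates of -0.91 in experiment 1 and -2.43 in experiment 2. Both isotype mice of experiment 2 lay above all 3 of experiment 1 for both genes, relative to the saline mean. No mouse passed Dixon's test in the 24 sets examined, with mice of both experiments pooled as log2 above the saline mean. For Gpnmb, anti-RGMb mouse 1 of experiment 1 lay just under the cutoff, at 1.53 where the others of its group lay at 0.21 to 0.71. Without that mouse the Gpnmb difference of anti-RGMb from saline mice was 0.36 in place of 0.55.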

How the results depend on the processing

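No direction of the 8 genes reversed under any alternative run. Without the experiment term, which left the level difference between experiments in the error, 34 genes were called higher and 1 lower in isotype against saline mice (35 in all), 0 by limma in anti-RGMb against isotype mice (73 at an unadjusted p under 0.05), and 10 higher and 0 lower (10 in all) in anti-RGMb against saline mice, with 0 of the 8 genes called anywhere. The estimates for isotype minus saline were then 2.54 (Tm4sf19), 1.18 (Dcstamp), 1.60 (Ocstamp), 1.08 (Atp6v0d2), 1.83 (Acp5), 1.29 (Gpnmb), 1.92 (Trem2) and 0.78 (Tyrobp). Those for anti-RGMb minus isotype were -0.87 (Dcstamp), -1.32 (Ocstamp), -0.60 (Atp6v0d2), -0.91 (Acp5), -0.74 (Gpnmb), -0.96 (Trem2) and -0.11 (Tyrobp), and those for anti-RGMb minus saline 0.48 (Atp6v0d2), 0.93 (Acp5), 0.96 (Trem2) and 0.67 (Tyrobp). The median of all genes shifted to -0.20 and 0.19 in the first and second of these comparisons, so changes there are relative to it. Isotype mice had 2 of 5 arrays in experiment 2, and each other group 3 of 6. Without the term, the level difference between experiments therefore also entered the estimates with isotype mice. With experiment 1 alone, 1847 genes were higher and 2448 lower (4295 in all) in isotype against saline mice, 503 higher and 517 lower (1020) in anti-RGMb against isotype mice, and 469 higher and 81 lower (550) in anti-RGMb against saline mice. Tm4sf19 was then at -1.42, Atp6v0d2 at -0.70 and Gpnmb at -0.61 in anti-RGMb minus isotype, and Atp6v0d2 at 0.67 in anti-RGMb minus saline. With experiment 2 alone, 2442 genes were lower in isotype against saline mice, 1290 higher in anti-RGMb against isotype mice, and 441 higher and 40 lower (481) in anti-RGMb against saline mice, with Tm4sf19 at -2.96 against isotype and 0.73 against saline mice, and Atp6v0d2 at 0.29 against saline mice. Fewer arrays enter these fits. In anti-RGMb against saline mice, array weights gave 1297 higher and 1244 lower (2541), with Tm4sf19 at -1.75 against isotype and 0.68 against saline mice and Dcstamp at 0.29 against saline mice. In that comparison the genes called lower, 442 as reported, were 700 with arrays centred on their medians, 680 without the dimmest 40% of genes (which leaves out Dcstamp), and 873 (2009 in all) in a fit of those groups alone, where Tm4sf19 was at 0.66 and Dcstamp at 0.30. Leaving out 1 mouse each gave 207 to 654 genes lower in that comparison (207 without saline mouse 1-2, 208 without anti-RGMb mouse 2, 229 without anti-RGMb mouse 3, 252 without saline mouse 2-2 and 287 without anti-RGMb mouse 1-2), -2.35 to -1.84 for Tm4sf19 in anti-RGMb minus isotype and 0.59 to 0.76 in anti-RGMb minus saline, where the gene passed without isotype mouse 3 (0.66, adjusted p = 0.0239), and changed no other call of the 8 genes. Of the named list genes, 118 calls were lost over all alternatives, most of them without the experiment term or with 1 experiment alone. Mouse number as a replicate block gave 233 genes lower, and Atp6v0d2 at 0.48 above saline, no longer past the threshold (adjusted p = 0.0519). Whether the numbers pair the mice is not known. The interaction of Ocstamp in anti-RGMb minus isotype had an adjusted p of 0.0788 under that block. With 32 added before the log, the interactions of Dcstamp (0.84, adjusted p = 0.0342) and Trem2 (0.86, adjusted p = 0.0196) in isotype minus saline passed the threshold. Where no reason is given, the cause was not tested.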
